A study of Homo sapiens with 4 samples.

Results

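The microRNA cluster of the placenta on chromosome 19 was followed in human embryonic stem cells (hESCs) of the naïve and the primed state. Its members were all transcripts annotated as microRNA that lay wholly between positions 53641000 and 53790000 of chromosome 19 (GRCh38). This rule used no measured value and gave 50 hairpins of the 244825 transcripts counted, or 50 of the 1877 microRNA genes among 62218 genes. Of these, 46 ran from MIR512-1 (53666679 to 53666762) to MIR519A2 (53762344 to 53762430) and form the cluster known as C19MC. The other 4 were MIR371A, MIR371B, MIR372 and MIR373, which lay between 53787675 and 53788773 and are called here the MIR373 group.

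Both states came from H1, an established wild-type hESC line, and each had 2 Nanopore cDNA libraries of total RNA. The naïve hESCs were derived from the primed ones and grew in FINE medium (which holds dasatinib, AZD5438, SB590885, PD0325901, Y-27632, LIF, activin A and bFGF) in low oxygen, to 50% confluency. The primed hESCs grew in mTeSR in normal oxygen, to 60 to 70% confluency. State therefore cannot be told apart from medium, oxygen and density, the line stands for a single genotype, and the labels name no batch and do not say that replicates were separate cultures, so p-values measure the spread between libraries, which may be technical. By edgeR's quasi-likelihood test, 9 of 9 naïve marker genes were lower in primed hESCs (32.6% of all genes tested). In the same test 7 of 7 primed marker genes were higher (37.4% of all genes tested). Of the primed markers, ZIC2, THY1, SFRP2, DUSP6, SOX11 and FZD7 had enough counts for the test through their primed libraries only. Of the naïve markers, DNMT3L had enough through its naïve libraries only. The direction of these genes was set by how they entered the test, so neither tally is read against its share. Of 4 pluripotency genes listed as shared by both states, only POU5F1 was not called, while 70% of all genes tested were called in either direction. NANOG was lower in primed hESCs (log2 fold change −1.62), and SOX2 (2.38) and LIN28A (2.11) were higher.

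MicroRNAs are cut from long primary transcripts, first in the nucleus to a hairpin and then in the cytoplasm to a mature strand that guides Argonaute proteins to messenger RNAs. Bases 2 to 8 of the mature strand, the seed, largely set which messenger RNAs are bound. C19MC is found in primates only, is read from the paternal chromosome in the placenta and is best known for its high activity in trophoblast cells, while MIR371A, MIR372 and MIR373 are known from embryonic stem cells and germ cell tumours. The libraries did not measure mature microRNAs. A count on a hairpin is an alignment that touched its span, so it reports the primary transcript or another RNA that crosses it.

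The mature strands of the hairpins with the largest counts are shown first, because their seeds group them, with miR-520e-3p and miR-526a-5p for the seeds that most members share and a MIR302 strand from chromosome 4 for comparison. They are from RefSeq (GRCh38.p14), 5′ to 3′, with the seed in capitals.
hsa-miR-512-3p: aAGUGCUGucauagcugagguc
hsa-miR-1323: uCAAAACUgaggggcauuuucu
hsa-miR-498-5p: uUUCAAGCcagggggcguuuuuc
hsa-miR-520f-3p: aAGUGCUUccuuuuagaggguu
hsa-miR-526a-5p: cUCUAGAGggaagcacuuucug
hsa-miR-520e-3p: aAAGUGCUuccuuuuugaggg
hsa-miR-371a-3p: aAGUGCCGccaucuuuugagugu
hsa-miR-372-3p: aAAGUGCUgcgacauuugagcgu
hsa-miR-373-3p: gAAGUGCUucgauuuuggggugu
hsa-miR-302a-3p: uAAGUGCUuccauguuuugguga
RefSeq gave mature strands for 49 of the 50 members, in 88 entries with 62 distinct sequences and 39 seeds. The seed AAGUGCU was shared by 7 members (MIR520E, MIR520A, MIR520B, MIR520C, MIR520D, MIR372 and MIR373) and by MIR302A, MIR302B, MIR302C and MIR302D. The seed UCUAGAG was the most common and occurred in 11 members.

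The copies were close to each other in sequence. Each of the 46 hairpins that could be compared had a median identity of 94.5% to its closest other member, with a range from 72.5% to 100%, and 36 had at least 90%. MIR512-1 and MIR512-2 were identical over the bases they share, as were MIR515-1 and MIR515-2. MIR1323 (74.0% to MIR526B), MIR373 (72.5% to MIR1323) and MIR372 and MIR371A (77.6% to each other) stood alone. Because the recorded count command counts an alignment at every place to which it maps, counts on the near-identical hairpins are uncertain, and those on the distinct ones are less so. MIR371A (53787675 to 53787741) and MIR371B (53787677 to 53787742) are on opposite strands of the same bases and, as the counting ignored strand, had the same counts throughout.

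By the GENCODE 44 annotation, 44 of the C19MC hairpins lay in introns and 2, MIR1283-1 and MIR519A2, in exons of ENSG00000269842. This long noncoding RNA (lncRNA) of the plus strand ran from 53648055 to 53764199, or 116145 bases, with 12 annotated transcripts, the longest of 10 exons. MIR371A and MIR372 lay in an intron, and MIR373 in an exon, of a second lncRNA, ENSG00000269564. MIR371B lay in an exon of ENSG00000269877 on the minus strand.

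The counts were low throughout. The libraries held between 129276054 and 161548901 counts, and the 50 members together held 112 and 103 counts in naïve hESCs against 36 and 32 in primed hESCs. Per 100000000 counts these were 72.9 and 63.8 in naïve hESCs and 27.8 and 24.1 in primed hESCs. The naïve sums lay above the primed sums with no overlap. A count was present on 25 and 30 members in naïve hESCs and on 15 and 17 in primed hESCs. A hairpin with no count could have held up to 3 counts, and intervals given here cover counting error only. They take each count as a separate event. An alignment can be counted on several hairpins, so intervals of sums and shares over hairpins may be too narrow.

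Levels are given as CPM, counts per 1000000 of a library total that was scaled with edgeR's TMM factors. Summed over the 46 C19MC hairpins, the counts were 61 and 64 in naïve hESCs (rep1, rep2) against 15 and 21 in primed hESCs. The summed level was 2.58 ± 0.0961 CPM (SD, n = 2) in naïve hESCs and 0.598 ± 0.124 CPM in primed hESCs, a 4.31-fold higher level in the naïve state. The ratio of the pooled counts had a 95% interval from 2.94 to 6.41. The difference was far larger than the spread within either state. MIR1323 alone did not carry it, as the sum without that hairpin was still 4.09-fold higher. With library totals in place of TMM the log2 difference in primed hESCs was −1.47 in place of −2.11. That choice also moved the median of all genes tested, from 0.08 to 0.72. A change of scaling moves all genes by about the same amount, so the like distance of the sum from this median is no separate check.

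The same held along the cluster. The first 23 hairpins, MIR512-1 to MIR524, had 54 and 50 counts in naïve hESCs and 11 and 18 in primed hESCs, a pooled ratio of 4.44 (95% interval 2.92 to 6.95). The last 23, MIR517A to MIR519A2, had only 7 and 14 counts against 4 and 3, a ratio of 3.71 (1.52 to 10.3). Most C19MC counts in every library lay on the first 23 hairpins. Their share was 88.5% (95% Wilson interval 78.2 to 94.3%) and 78.1% (66.6 to 86.5%) in naïve hESCs, against 73.3% (48.0 to 89.1%) and 85.7% (65.4 to 95.02%) in primed hESCs. These intervals overlapped, and no shift of the counts along C19MC between the states was detectable at this depth.

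**Figure D1:**
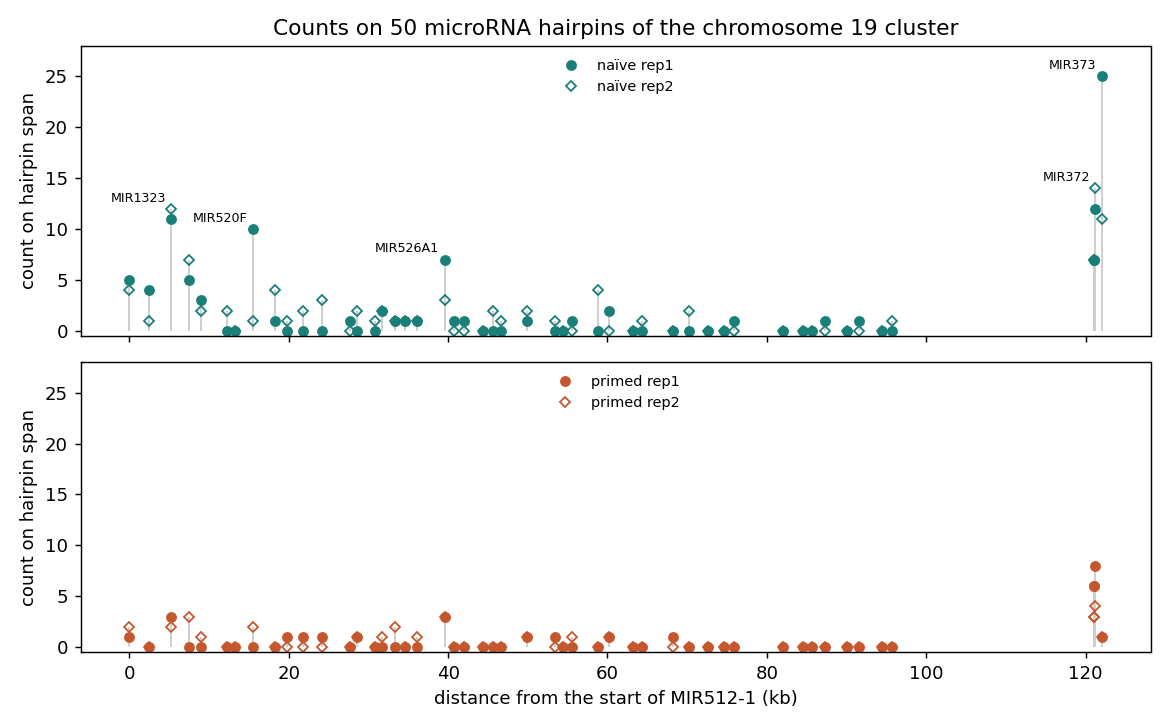
Counts on each of the 50 hairpins (vertical axis, alignments per hairpin) against the distance of the hairpin from the start of MIR512-1 (horizontal axis, kb), for the naïve libraries (upper panel) and primed libraries (lower panel). Filled circles are rep1 and open diamonds rep2. The largest naïve counts, up to 25, lie at MIR373, MIR372 and MIR1323, and no primed count is above 8.

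**Figure D2:**
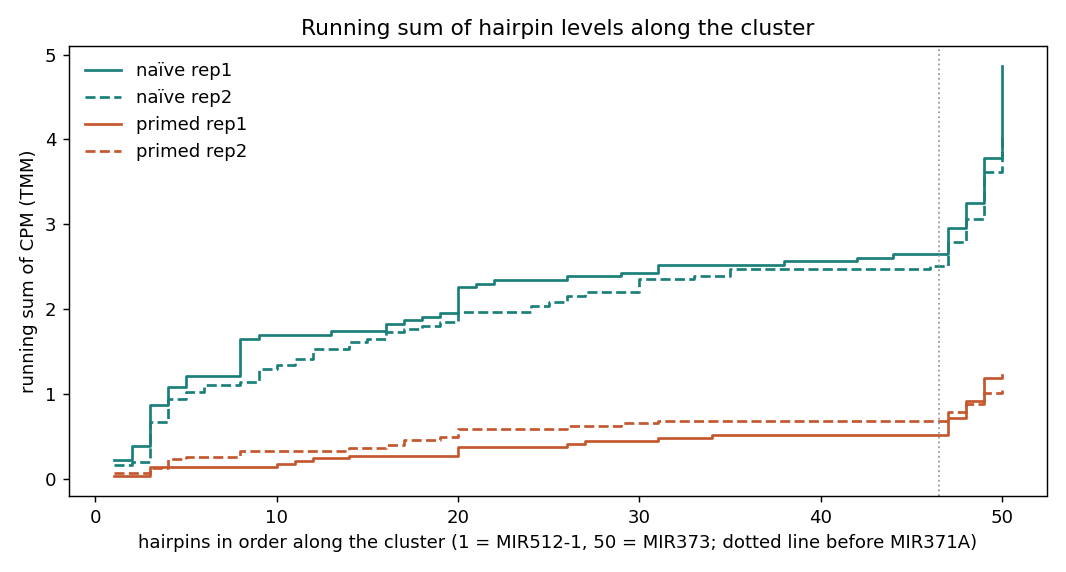
Running sum of the hairpin levels (vertical axis, CPM with TMM scaling) over the 50 hairpins in chromosomal order (horizontal axis), 1 line per library. The naïve lines end at 4.86 and 4.04 CPM and the primed lines at 1.22 and 1.04 CPM, and all rise mainly over the first 23 hairpins and the last 4.

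Both naïve libraries lay above both primed libraries, in CPM, for 15 of the 50 members, 11 of C19MC and all 4 of the MIR373 group, and the reverse occurred for 0. Of the 50 members, only 39 had a count in any library, and the shares that follow are over genes with a count. Over all genes with a count the shares were 29.4% for naïve above primed and 36.5% for the reverse, and over all microRNA genes with a count they were 24.9% and 25.1%. For 3 of the 15, MIR518B, MIR526A1 and MIR521-2, the lowest naïve count equalled the highest primed count and only the scaling set them apart. The summed naïve count was larger than the primed count for 32 members and smaller for 1, MIR518D, which had a single count in primed rep1. It was equal for 6 members, and 11 had no count in any library. The members without a count were MIR519E, MIR524, MIR517B, MIR518E, MIR518A2, MIR517C, MIR521-1, MIR522, MIR519A1, MIR516A1 and MIR516A2, of which all but MIR519E and MIR524 belonged to the last 23 hairpins of C19MC. At these counts their absence is not shown.

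Only 3 members, MIR1323, MIR372 and MIR373, had at least 10 counts in at least 2 libraries and entered the test across 27632 genes. All 3 were lower in primed hESCs in the edgeR quasi-likelihood test, adjusted by Benjamini-Hochberg over all genes. In the same test 32.6% of all genes and 43.3% of the 201 microRNA genes tested were lower. The 3 members passed the count minimum through their naïve libraries, so their common direction says nothing of the members that were not tested. The 47 others had too few counts for a call.

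MIR373, the last hairpin of the cluster, had the largest summed count in naïve hESCs and the largest change of the 3 tested hairpins. MIR372 had the larger count in naïve rep2 and in both primed libraries. MIR373 had 25 and 11 counts in naïve hESCs against 1 in each primed library, or 0.758 ± 0.462 CPM (SD, n = 2) against 0.0333 ± 0.000960 CPM. The naïve libraries differed from each other by more than those of any other tested hairpin, yet both were well above the primed ones. The log2 fold change in primed hESCs was −4.31 (SE 0.72), with an adjusted p of 1.21e-06 by edgeR's quasi-likelihood test, and the ratio of naïve to primed counts had a 95% interval from 5.73 to 190.9. Left out in turn, each library gave a log2 fold change between −4.85 and −3.54, and the call was kept every time.

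MIR372, at 53787890 to 53787956 and with the same seed as MIR373, had a smaller fold change. Its counts were 12 and 14 in naïve hESCs against 8 and 4 in primed hESCs, or 0.535 ± 0.0202 CPM against 0.201 ± 0.100 CPM, with no overlap. The log2 fold change was −1.40 (SE 0.51) with an adjusted p of 0.0149 by edgeR's quasi-likelihood test, and the count ratio was 2.68 (95% interval 1.31 to 5.83). This call was lost with DESeq2 (−1.46, adjusted p 0.156), with library totals in place of TMM (−0.77, adjusted p 0.18) and in the edgeR fit without primed rep2 (−0.96, adjusted p 0.207). Without primed rep1 the log2 fold change was −2.00, and the call was kept.

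MIR371A and MIR371B, read from the same alignments, had 7 counts in both naïve libraries against 6 and 3 in primed hESCs. They fell short of the count minimum. The ratio of naïve to primed counts was 1.92 with an interval from 0.776 to 5.04, so a change of either direction was not detectable. Summed over the 4 hairpins of the MIR373 group the counts were 51 and 39 against 21 and 11. The level was 1.87 ± 0.483 CPM in naïve and 0.537 ± 0.251 CPM in primed hESCs, 3.49-fold higher in the naïve state. This sum holds the alignments of MIR371A and MIR371B doubly. With them taken once the counts were 44 and 32 against 15 and 8, 4.10-fold higher in the naïve state.

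MIR1323, at 53671968 to 53672040, was the only tested hairpin of C19MC. It had 11 and 12 counts in naïve hESCs against 3 and 2 in primed hESCs, or 0.474 ± 0.00460 CPM against 0.0836 ± 0.0260 CPM. Replicates of either state differed by a single count and the states did not overlap. The log2 fold change was −2.44 (SE 0.62) with an adjusted p of 5.60e-04 by edgeR's quasi-likelihood test, and the count ratio was 5.69 (95% interval 2.12 to 19.2). Its hairpin lay 327 bases from the nearest annotated lncRNA exon.

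Among the other C19MC hairpins near the start, MIR512-1 had 5 and 4 counts against 1 and 2, and its identical copy MIR512-2 had 4 and 1 counts against 0 and 0. MIR498 had 5 and 7 counts in naïve hESCs and 0 and 3 in primed hESCs. MIR520F had 10 and 1 against 0 and 2, so its naïve replicates disagreed and overlapped the primed range. MIR526A1, the hairpin with the largest C19MC count in primed hESCs, had 7 and 3 counts against 3 and 3. Its ratio of 2.06 had an interval from 0.679 to 6.90 and was not distinguishable from 1.

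When the count minimum was dropped, 39 members could be fitted. MIR498 (adjusted p 0.0472) and MIR520F (adjusted p 0.0350) then joined the other 3 as lower in primed hESCs by edgeR's quasi-likelihood test, and 0 members were higher. In that fit 19.3% of all genes were lower in primed hESCs. Both added calls rested on at most 3 counts in any primed library, and naïve rep1 held 10 of the 11 naïve counts of MIR520F.

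Hairpins that yield the same mature strand were looked at together, since an alignment cannot tell such copies apart with certainty. The strand miR-526a-5p can come from MIR526A1, MIR526A2, MIR520C and MIR518D, whose counts summed to 10 and 3 in naïve hESCs and 5 and 4 in primed hESCs, with the range of the naïve libraries around that of the primed ones. MIR512-1 and MIR512-2 summed to 9 and 5 against 1 and 2. MIR515-1 and MIR515-2 summed to 1 and 6 against 0 and 0, and MIR516B1 and MIR516B2 to 0 and 6 against 0 and 0. The naïve replicates of these last pairs differed widely. MIR516A1 and MIR516A2 had no count, and MIR1283-1 and MIR1283-2 together had 1 and 2 counts against 1 and 0. MIR517A, MIR517B and MIR517C shared miR-517-5p and together had 0 and 2 counts against 0 and 0.

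Grouped by seed, the 7 members with AAGUGCU had 42 and 32 counts in naïve hESCs and 11 and 6 in primed hESCs, most of them on MIR372 and MIR373. The 11 members with UCUAGAG had 13 and 9 counts against 7 and 8. These sums rest on different hairpins of unlike uniqueness, and the difference between the seed groups was not tested. Split by sequence identity, the 36 C19MC hairpins with at least 90% identity to another member had 67 naïve and 24 primed counts in all, and the 7 less similar ones had 33 and 7. MIR1323 alone held 23 of those 33 naïve and 5 of those 7 primed counts. MIR498, MIR520F and MIR517A had no hairpin sequence to compare and are in neither set. They held 12, 11 and 2 naïve counts and 3, 2 and 0 primed counts.

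Whether any hairpin changed by more or less than other members was tested in edgeR's diffSpliceDGE, with the members that met the count minimum as 1 unit. That unit held MIR1323, MIR372 and MIR373 only, so each was set against the other tested ones and not against the whole cluster. Of the 3 hairpins tested, 0 departed at an adjusted p under 0.05 and 1 had an unadjusted p under 0.05. In that test 4.27% of 159580 transcripts departed from the rest of their gene or cluster. MIR373 departed by −1.85 on the log2 scale (unadjusted p 0.0371, adjusted p 0.421) and MIR372 by 1.06 (unadjusted p 0.084). MIR1323 lay at 0.02 (unadjusted p 0.948). Without the count minimum the unit held 39 members and 0 departed, again with MIR373 alone under an unadjusted p of 0.05 (0.0176, adjusted p 0.284). MIR1323 then lay at −0.48 (unadjusted p 0.544).

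The balance of the cluster's ends did not shift detectably either. The MIR373 group held 45.5% (95% Wilson interval 36.6 to 54.8%) and 37.9% (29.1 to 47.5%) of all member counts in naïve hESCs, against 58.3% (42.2 to 72.9%) and 34.4% (20.4 to 51.7%) in primed hESCs. The primed replicates lay on both sides of the naïve ones.

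Of the 14 other transcripts of the window, 6 had enough counts for the test and were lower in primed hESCs. In the same test 32.6% of all genes were lower. All 6 reached the count minimum through their naïve libraries only, so their common direction says nothing of the 8 others. The C19MC lncRNA ENSG00000269842 was counted as a transcript of its 3′ end, at 53761961 to 53764199, and had 76 and 80 counts in naïve hESCs against 4 and 5 in primed hESCs. The naïve libraries were close to each other and far above the primed ones. Its log2 fold change was −4.38 (SE 0.40), with an adjusted p of 4.77e-13 by edgeR's quasi-likelihood test and a count ratio of 21.4 (95% interval 11.0 to 47.8). Its span covers MIR519A2, which nonetheless had only 1 count, in naïve rep2.

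Upstream of MIR512-1, the U6 pseudogene RNU6-698P (53653685 to 53653791) lies inside the span of the same lncRNA and had 33 and 52 counts in naïve hESCs and 0 in both primed libraries. This was at least 17.4-fold higher in naïve hESCs with 3 counts per primed library as the limit (adjusted p 9.76e-12, edgeR's quasi-likelihood test). ENSG00000270347 (53657400 to 53658462) had 21 and 15 counts against 0 and 0, at least 7.50-fold higher (adjusted p 3.81e-08, same test). Neither was seen in a primed library, whereas MIR512-1 and MIR1323 further along still had primed counts.

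Between C19MC and MIR371A, ENSG00000238150 (53775599 to 53775882) had 19 and 19 counts against 3 and 9, a log2 fold change of −1.95 (SE 0.49, adjusted p 5.66e-04, edgeR's quasi-likelihood test). The primed replicates differed, and the value was −2.88 without primed rep2 and −1.40 without primed rep1, with the call kept both times. ENSG00000269877, whose span covers MIR371A, MIR371B and MIR372, had 22 and 23 counts against 9 and 8 and changed by −1.70 (SE 0.44, adjusted p 7.04e-04, same test). This is close to the −1.40 of MIR372, with which it shares alignments. ENSG00000269564, counted from 53788782, next to the end of MIR373, had 43 and 28 counts against 4 and 3 and changed by −3.61 (SE 0.50, adjusted p 2.48e-08, same test). In each of the 6 the naïve libraries lay above the primed ones without overlap.

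**Figure D3:**
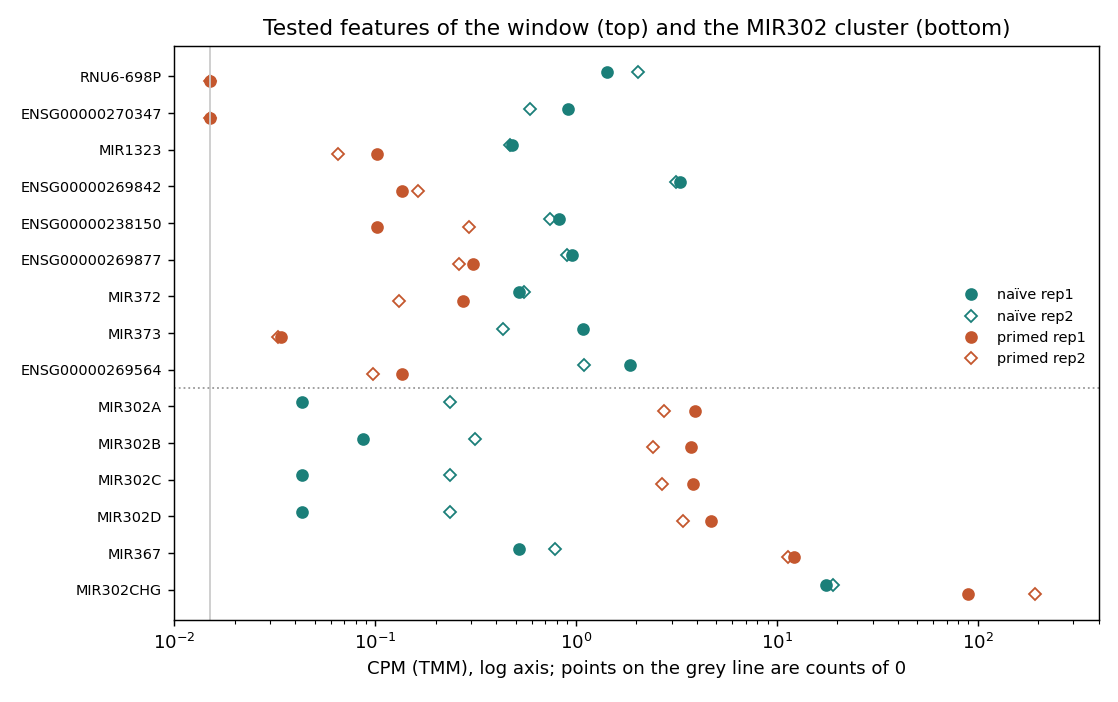
Levels (horizontal axis, CPM with TMM scaling, log axis) of the 9 tested features of the chromosome 19 window in chromosomal order (above the dotted line) and of the MIR302 cluster (below it), 1 point per library. Points on the grey line are counts of 0. The 9 window features shown are higher in the naïve libraries, RNU6-698P and ENSG00000270347 are at 0 in both primed libraries, and all MIR302 features are higher in the primed libraries.

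The 8 remaining transcripts of the window had at most 2 counts in any library and were not tested. Among them SEPTIN7P8, a pseudogene, had 1 and 2 counts in naïve and 2 and 2 in primed hESCs. HMGN1P32 had 1 in each naïve library and 0 in primed hESCs.

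Genes outside the window gave values of both signs. DPRX, a homeobox gene and the nearest protein-coding gene before the cluster, had 5 and 5 counts in naïve and 1 and 2 in primed hESCs and was not tested. ZNF331, a zinc-finger gene further upstream, had 294 and 334 counts against 326 and 360 and was not called (log2 fold change −0.18, adjusted p 0.331, edgeR's quasi-likelihood test). NLRP12, an innate immune gene just after the window, had 53 and 47 counts against 89 and 108 and was higher in primed hESCs (0.66, SE 0.26, adjusted p 0.0194, same test). MYADM, further away, had 1007 and 1010 counts against 895 and 1010 and was lower by a small amount (−0.39, adjusted p 0.0167, same test).

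The MIR302 cluster on chromosome 4, the other large microRNA cluster of pluripotent cells and a carrier of the AAGUGCU seed, went the other way. Its 5 hairpins and their host gene MIR302CHG were each higher in primed hESCs, while 37.4% of all genes and 28.4% of microRNA genes tested were higher. MIR302A, MIR302B, MIR302C and MIR302D reached the count minimum through their primed libraries only, so that their shared direction is not read against these shares. MIR302A had 1 and 6 counts in naïve and 115 and 84 in primed hESCs, a log2 fold change of 4.49 (SE 0.44, adjusted p 4.28e-12, edgeR's quasi-likelihood test). It was 6.11 without naïve rep2 and 3.79 without naïve rep1, and the other 3 of these hairpins moved likewise, with the lowest value 3.27 and the highest 6.41, the calls being kept. MIR302B had 2 and 8 against 110 and 74. MIR367, whose seed differs, had 12 and 20 counts against 358 and 349 (4.15, SE 0.26, adjusted p 2.11e-18, same test). MIR302CHG had 403 and 483 counts against 2645 and 5933 (2.96, SE 0.20, adjusted p 6.55e-17, same test), with primed replicates that differed from each other, and changed by 2.30 without primed rep2. The hairpins lie next to each other and share alignments, so they are not independent measurements. In these libraries the hairpins with the seed AAGUGCU thus had their larger counts on chromosome 19 in the naïve and on chromosome 4 in the primed state.

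MIR17HG, the host of a widely expressed growth-associated cluster, was also higher in primed hESCs, with 12 and 19 counts against 83 and 101 (log2 fold change 2.26, SE 0.32, adjusted p 4.29e-08, edgeR's quasi-likelihood test). Its hairpins had at most 10 counts and were not tested. MIR92A1 had 0 and 2 counts in naïve and 9 and 10 in primed hESCs.

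Genes that make, load and regulate microRNAs were tested in the same fit. Of 23 such genes, all tested, 11 were higher and 7 lower in primed hESCs and 5 (DROSHA, RAN, TARBP2, DDX5 and DDX17) were not called. Across all genes 70% were called in either direction, so the count by itself was not particular to the list. The split depended on scaling, as library totals in place of TMM gave 16 higher and 1 lower. LIN28B, an RNA-binding protein that blocks the maturation of let-7, was the only gene called lower under both scalings. It had 2017 and 2717 counts in naïve and 726 and 795 in primed hESCs (log2 fold change −1.94, SE 0.15, adjusted p 5.45e-15, edgeR's quasi-likelihood test). Its paralog LIN28A had 880 and 965 counts against 5200 and 4627 (2.11, SE 0.15, adjusted p 2.33e-16, same test). The paralogs were thus called in opposite directions.

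The TNRC6 genes, which encode the silencing partners of Argonaute, were higher in primed hESCs under every setting tried. TNRC6C had the largest change, with 27 and 40 counts against 354 and 465 (log2 fold change 3.30, SE 0.23, adjusted p 6.91e-17, edgeR's quasi-likelihood test). TNRC6B changed by 1.45 and TNRC6A by 1.16. Of the Argonaute genes, AGO2, which encodes the slicing member, had 258 and 268 counts against 588 and 552 (0.81, SE 0.16, adjusted p 2.61e-05, same test). AGO4 was lower (−0.93), a call that was lost with library totals (−0.29, adjusted p 0.189).

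Of the genes that cut or export hairpins, DICER1, the cytoplasmic nuclease, had 161 and 216 counts in naïve and 412 and 375 in primed hESCs (log2 fold change 0.76, SE 0.17, adjusted p 1.83e-04, edgeR's quasi-likelihood test). DROSHA, the nuclear nuclease, had 310 and 329 against 409 and 420 and was not called (0.07, adjusted p 0.719, same test), but was higher with library totals (0.71, adjusted p 0.00042). XPO5, which carries hairpins to the cytoplasm, had 12662 and 11380 counts against 9364 and 9708. It was lower with TMM (−0.65, adjusted p 9.85e-05, same test) and at −0.01 (adjusted p 0.972) with library totals.

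**Figure D4:**
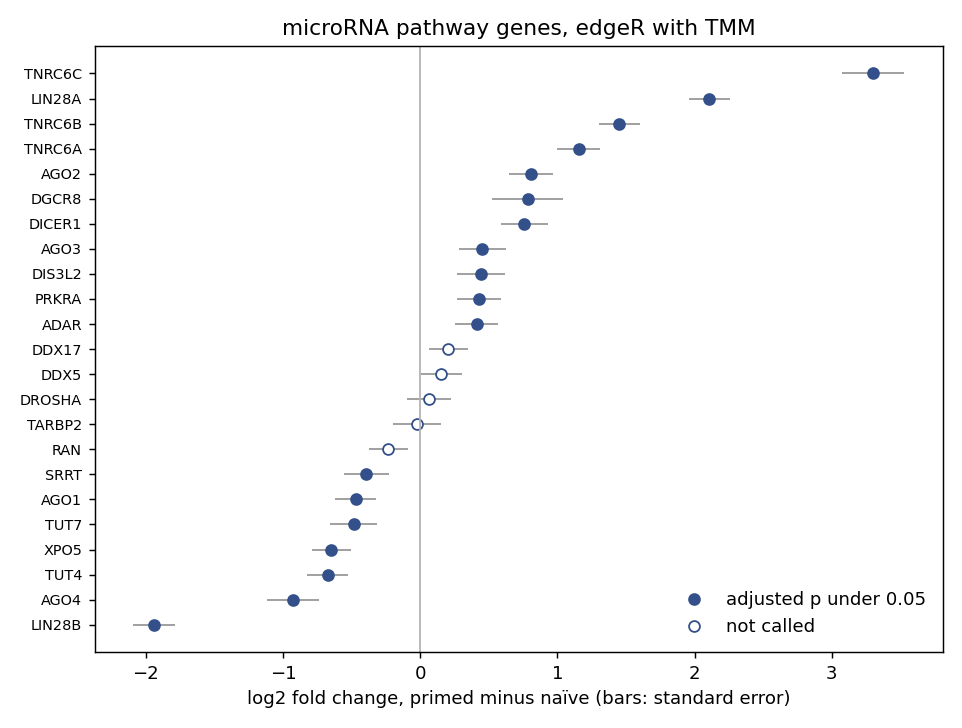
Log2 fold change of 23 microRNA pathway genes in primed against naïve hESCs (horizontal axis) with its standard error as a bar, from edgeR with TMM scaling, in order of the change. Filled points passed an adjusted p of 0.05 and open points did not. TNRC6C (3.30) and LIN28A (2.11) lie highest and LIN28B (−1.94) lowest, and AGO1, TUT7, SRRT, RAN and TARBP2 change sign with library totals in place of TMM.

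Trophoblast genes moved with the cluster. Of 20 trophoblast genes listed, 18 were tested, 17 were lower in primed hESCs and 1, KRT7, was not called, while 32.6% of all genes tested were lower. Some of the 17, among them GATA2, TFAP2A, ELF5, CGA, ERVW-1, ERVFRD-1 and PSG3, reached the count minimum through their naïve libraries only. The tally is therefore not read against that share. The summed level of the 20 genes was 3114 and 3410 CPM in naïve hESCs against 150.5 and 144.0 CPM in primed hESCs. These sums rest mainly on a few genes. CGA alone had 1551 and 1866 CPM in naïve hESCs, and KRT18 alone had 122.2 and 113.6 CPM in primed hESCs. CGA, the common subunit of glycoprotein hormones, had 35747 and 47550 counts against 0 and 1, ERVW-1, which encodes the fusion protein syncytin-1, had 1167 and 1615 against 0 and 3, and PSG1 was at 0 in both primed libraries. CDX2, a regulator of early trophoblast, had only 3 and 4 counts in naïve and 2 and 2 in primed hESCs. The part of trophoblast gene activity in the cluster's counts was not tested.

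Amnion genes moved the same way, with 5 of 5 lower in primed hESCs (32.6% of all genes tested), at summed levels of 27.8 and 26.4 CPM against 6.66 and 5.42 CPM. ISL1 and VTCN1 among them reached the count minimum through their naïve libraries only, so their direction is not read against that share. Of 6 primitive endoderm genes, 4 were tested, of which 1 was higher and 2 lower in primed hESCs. Of all genes tested 37.4% were higher and 32.6% lower, so this tally is not particular to the list. The 6 genes summed to 14.3 and 22.5 CPM in naïve against 9.83 and 9.37 CPM in primed hESCs, and FOXA2 was at 0 in both naïve libraries. In bulk RNA, fewer cells that read the cluster and less RNA of it per cell cannot be told apart.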

How the data were processed

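The authors aligned Nanopore cDNA reads to GRCh38 with minimap2 and deposited, for each of 4 libraries, raw counts per transcript from featureCounts 2.0.0 on Ensembl release 105. Counts covered whole transcript spans, ignored strand, and were given to every transcript overlapped and, by the recorded command, at every place aligned. They were not normalized, and replicates were not pooled.

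Transcripts were matched by identifier to GENCODE 44 (242542 matched, 97.9% at the same position, and the 2283 others, with 1.00% of the counts, were not used). Biotypes were taken from there. Each gene was represented by its most counted isoform (mean of the libraries). Genes reaching 10 counts in 2 or more libraries entered edgeR 4.0.16 (R 4.3.3, TMM, quasi-likelihood, state as the term, two-sided, Benjamini-Hochberg), after tests on simulated counts. Departure of a member from the members that met the count minimum, taken as 1 unit, was tested with diffSpliceDGE. Count ratios have exact conditional Poisson intervals and shares have Wilson intervals, both at 95%. Sequences are from RefSeq. Replicates differed beyond sampling noise (chi-square per degree of freedom 15.2 in naïve and 8.89 in primed hESCs).

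The named hairpins were the 5 with the largest counts in each state, those tested, both ends of the cluster, the MIR373 group (MIR371A, MIR371B, MIR372, MIR373) and pairs with the same mature strand. Other hairpins, MIR498 and MIR520F among them, were named after their values were seen. The members and gene lists were chosen with earlier results of these data known. Alternatives were DESeq2 1.42.0, library totals, no count minimum or one of 50, a sum over isoforms, all transcripts, a fold threshold, a replicate block, counts per base, equal counts taken once, and each library left out.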

Additional observations from a re-analysis of the deposited data

How the results depend on the processing

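Precision was limited by counts of at most 25 on any hairpin, and with a minimum of 50 counts no member was left to test. The number of members called was 3, 5 with no count minimum, and 2 to 3 with a library left out, where the lone library of a state was assumed to vary like the others. The MIR372 call was lost with DESeq2, with library totals and without primed rep2. In comparisons of the window's genes with their reported values, 79 of 82 kept direction and call, 3 lost the call and 0 reversed. The log2 difference of the summed C19MC level was −1.47 with library totals, −2.16 with DESeq2 size factors, −1.99 with equal counts taken once and −2.34 to −1.91 with a library left out. The share of the MIR373 group in naïve hESCs was 41.7%, 47.3% per base of hairpin and 40.2% with equal counts taken once. It was 37.9 to 45.5% with a library left out. In primed hESCs the share was 46.4%, 51.7% per base of hairpin and 39.7% with equal counts taken once. It was 34.4 to 58.3% there with a library left out.

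Of the pathway genes, 18 were called, 5 beyond a log2 fold change of 1, 12 with DESeq2, 13 with counts summed over isoforms and 14 to 16 with a library left out. Signs reversed with library totals for RAN (0.41), TARBP2 (0.62), AGO1 (0.17), TUT7 (0.15) and SRRT (0.25), for TARBP2 with a minimum of 50 counts (0.077) and with a library left out (range −0.070 to 0.020), and for DDX5 with a library left out (−0.012 to 0.30). The cause was not tested. No departing hairpin was called by edgeR in any alternative run, with 0 to 2 hairpins at an unadjusted p under 0.05.

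The replicate numbers do not pair the samples by the labels, and deviations of same-numbered libraries had a correlation of 0.04 over the genes tested. With the replicate number as a block, 3 members, 18 pathway genes and 0 departing hairpins were called.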
